A study of Mus musculus with 8 samples.

Results

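Egr1, Egr3, Fosb, Jun, Junb, Nr4a1, Nr4a3, Klf2, Btg2 and Cyr61 are immediate-early genes that encode regulators of transcription, or, for Cyr61, a matrix protein switched on with them. Their transcripts were compared between wild-type (WT) mice and mice with a knockout (KO) of Tet1, whose product oxidises 5-methylcytosine in DNA. The members were the non-control array probes that carry 1 of these 10 gene names. This gave 10 probes, 1 for each gene, of 39429 probes and 23688 named genes in all. All 10 genes were among the 16773 genes tested, but Egr3 and Nr4a3 passed the filter on dim probes only through KO samples.

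The series holds 8 samples in 4 groups of 2: WT cortex, KO cortex, WT hippocampus and KO hippocampus. All came from naive, untreated mice of a mixed 129 C57BL6 background, and the tissue was snap frozen. Each WT sample was labelled with Cy3 and shared a two-colour array with the KO sample of the same tissue and number, labelled with Cy5. The sources used here do not give age, the exons removed from Tet1 or whether samples are separate animals, so the error behind each p-value is the spread of these samples and may be technical.

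Immediate-early genes are transcribed within minutes of a stimulus without new protein synthesis. In neurons, synaptic activity raises calcium, and kinases of the CaMK, ERK and PKA pathways then act on factors already bound at the promoter, chiefly CREB at cyclic AMP response elements (CREs), serum response factor with its ELK partners, and MEF2. The genes induced encode zinc finger factors (EGR and KLF families), AP-1 subunits (FOS and JUN families), orphan nuclear receptors (NR4A family), the antiproliferative co-regulator BTG2 and the secreted matrix protein CYR61. In cortex and hippocampus their levels are widely read as a record of recent neuronal firing.

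The promoters were searched for the elements through which these factors act. The members were chosen as immediate-early genes, a class known for this induction route, so the shares of these elements are not independent of the choice. RefSeq (GRCm38.p6) promoters of 300 bases, from 250 before the start site to 50 after it, were found for 8 of the 10 members, with Cyr61 under its current name Ccn1. No promoter was found for Egr1 and Egr3, so these were not searched. The core of the CRE, TGACG on either strand, was in 7 of the 8, and in 20.8% of 32851 promoters of the same length. Nr4a1 and Nr4a3 each held 4 cores, Fosb, Junb, Klf2 and Cyr61 each held 1, and Jun held none. The full CRE, TGACGTCA, was found only in Btg2, at -166 from the start site, and in 1.79% of all promoters. The 2 cores counted in Btg2 lie within this element, 1 on each strand. The AP-1 site TGANTCA (7.81% of all promoters), the EGR site GCGTGGGCG (0.612%) and the CArG box of serum response factor (1.63%) had no match in the 8 promoters on either strand. A match describes the letters in this window and not a bound site. The 250 bases before the start site are given for Btg2 and Cyr61, the members called lower in KO, and for Nr4a1 and Nr4a3, which hold the most cores. They run 5′ to 3′ on the gene's strand, with capitals for the CRE and its cores.
Btg2, chr1:134079156-134079405, minus strand: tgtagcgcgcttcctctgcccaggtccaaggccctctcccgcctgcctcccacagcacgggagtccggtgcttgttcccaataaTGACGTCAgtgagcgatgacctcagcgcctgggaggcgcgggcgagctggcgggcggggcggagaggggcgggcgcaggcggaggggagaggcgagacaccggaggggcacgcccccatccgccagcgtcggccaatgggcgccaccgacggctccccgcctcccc
Cyr61, chr3:145649986-145650235, minus strand: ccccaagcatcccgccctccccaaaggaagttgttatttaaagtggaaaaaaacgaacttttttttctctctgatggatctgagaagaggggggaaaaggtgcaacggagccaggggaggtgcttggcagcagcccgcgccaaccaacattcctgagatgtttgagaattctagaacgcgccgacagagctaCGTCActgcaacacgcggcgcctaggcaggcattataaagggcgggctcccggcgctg
Nr4a1, chr15:101266596-101266845, plus strand: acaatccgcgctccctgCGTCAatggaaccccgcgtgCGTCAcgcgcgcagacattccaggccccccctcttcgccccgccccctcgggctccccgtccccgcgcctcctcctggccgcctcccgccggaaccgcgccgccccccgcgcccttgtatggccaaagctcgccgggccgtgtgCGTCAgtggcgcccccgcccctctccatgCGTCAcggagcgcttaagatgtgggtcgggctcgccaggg
Nr4a3, chr4:48045055-48045304, plus strand: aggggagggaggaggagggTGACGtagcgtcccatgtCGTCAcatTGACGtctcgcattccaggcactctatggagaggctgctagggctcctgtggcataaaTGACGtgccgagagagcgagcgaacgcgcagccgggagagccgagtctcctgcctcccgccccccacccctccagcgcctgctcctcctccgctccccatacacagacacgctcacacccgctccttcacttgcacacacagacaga
In Nr4a1 the cores begin at -233, -213, -69 and -40, and in Nr4a3 at -231, -213, -205 and -147.

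Of the spots on an array, 49.7% to 51.7% were well above background in Cy3 and 66.6% to 67.2% in Cy5, with none saturated. Dye and genotype cannot be told apart, because no array carried WT in Cy5 or KO in Cy3. The brightest Tet1 probe had a KO to WT log2 ratio of -0.19 ± 0.07 in cortex and -0.17 ± 0.07 in hippocampus (SE of the limma fit, n = 2 arrays). Neither passed (limma adjusted p = 0.224 and 0.234), and whether this probe lies in the deleted sequence is unknown. The tissues were checked against markers: 7 of 8 hippocampal markers were called lower in cortex in both genotypes, and 1 was called higher in KO cortex. Of all genes, 7.77% were called lower in WT cortex and 7.29% in KO cortex. Of 9 cortical markers, 5 were called higher in WT cortex and 4 in KO cortex, beside 7.20% and 7.54% of all genes. In KO cortex 1 cortical marker was called lower. The cortex samples also carried striatal RNA, with 9 of 9 striatal markers called higher in cortex in each genotype. WT hippocampus 2 and WT cortex 2 stood apart from the other samples of their tissue in choroid plexus RNA. The mean log2 signal over 9 choroid plexus markers was 12.18 in WT hippocampus 2 against 8.35 in WT hippocampus 1 and 8.40 and 9.27 in the KO hippocampus samples. It was 8.80 in WT cortex 2 against 11.22 in WT cortex 1 and 11.86 and 11.08 in the KO cortex samples. WT hippocampus 2 was also high for 6 thalamic markers (11.53 against 10.37).

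**Figure D1:**
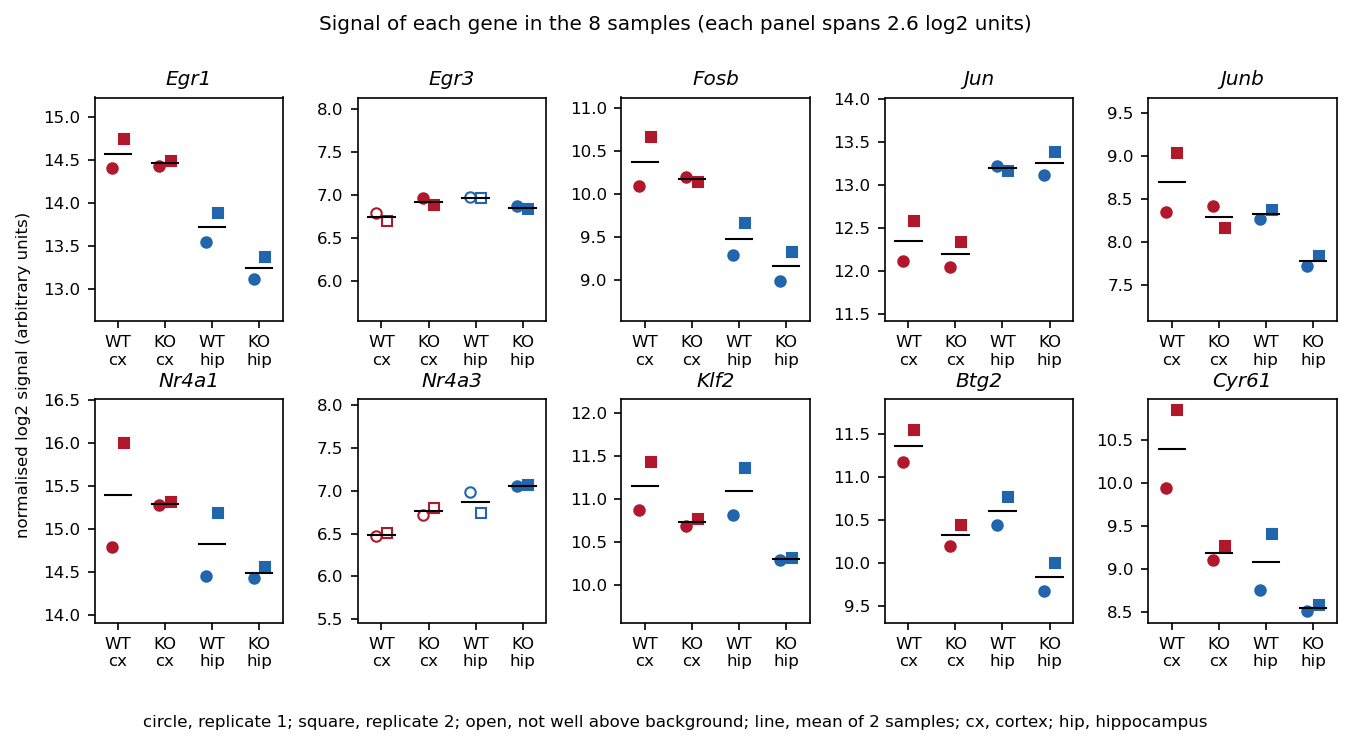
Normalised log2 signal (arbitrary units) of the 10 genes in the 8 samples, 1 panel per gene, with the mean of the 2 samples of each group as a line. WT cortex 2 is the highest of the 4 cortex samples for 8 genes, and Btg2, Cyr61 and Klf2 lie lower in both KO samples than in both WT samples in each tissue.

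Over both tissues Btg2 and Cyr61 fell in KO, and no member rose. This is 2 of 10 members lower, where 3.78% of all genes were called lower and 10.9% were called in either direction (limma on the 4 array log ratios, Benjamini-Hochberg adjusted p under 0.05 over 16773 genes). Within 1 tissue no member passed: 0.0596% of all genes passed in cortex and 0.0179% in hippocampus. Without the adjustment, 4 members had p under 0.05 in cortex and 3 in hippocampus, beside 21.1% and 23.7% of all genes. Of these, 2 in cortex and 3 in hippocampus were lower in KO, beside 7.40% and 9.28% of all genes. The others in cortex, Egr3 and Nr4a3, were higher in KO and not well above background in any WT sample. The ratio lay below 0 for 8 of 10 members in each tissue, beside 41.4% of all genes in cortex and 45.4% in hippocampus. The members' median ratio was -0.18 in cortex and -0.40 in hippocampus, where the medians of all genes were 0.04 and 0.02. The levels did not overlap and were lower in KO for 3 members in cortex, beside 22.3% of all genes, and for 6 in hippocampus, beside 21.1%. The 6 in hippocampus, and the 8 below 0 there, include Egr3, which was not well above background in any WT sample.

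Btg2, which encodes an antiproliferative protein that binds the CCR4-NOT deadenylase, was lower in KO by a similar amount on every array. Its probe lies at chr1:135972094-135972153 (mm9), on the minus strand. Its log2 signal was 11.18 and 11.54 in the WT cortex samples and 10.20 and 10.45 in the KO cortex samples. In hippocampus it was 10.44 and 10.77 in WT and 9.67 and 9.9996 in KO. Every KO sample was below every WT sample of its tissue. On single arrays the ratio was -0.97 and -1.097 in cortex and -0.77 on both hippocampus arrays, lower in KO on 4 of 4 arrays. The mean over both tissues was -0.90 ± 0.05, a 1.87-fold lower signal in KO (adjusted p = 0.0131). Cortex gave -1.03 ± 0.07 (adjusted p = 0.0532) and hippocampus -0.77 ± 0.07 (adjusted p = 0.0662), both just outside the threshold.

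Cyr61 encodes an integrin-binding matrix protein made by vascular, glial and neuronal cells. Its probe lies at chr3:145310187-145310246 (mm9), on the minus strand. The log2 signal was 9.94 and 10.85 in WT cortex and 9.11 and 9.27 in KO cortex. In hippocampus it was 8.75 and 9.40 in WT and 8.51 and 8.58 in KO. The groups did not overlap in either tissue, but the WT samples of a tissue lay further apart than the KO samples. The ratios were -0.83 and -1.58 in cortex and -0.25 and -0.83 in hippocampus, and the mean over both tissues was -0.87 ± 0.16, a 1.83-fold lower signal (adjusted p = 0.0442).

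The calls for Btg2 and Cyr61 did not survive every setting. With outlying local backgrounds kept as measured, Btg2 had -0.75 (adjusted p = 0.107) and Cyr61 -0.64 (adjusted p = 0.162), and leaving out any 1 array gave adjusted p = 0.0718 to 0.120 for Btg2 and 0.0797 to 0.158 for Cyr61. Over all alternatives adjusted p ran from 0.000223 to 0.120 and from 0.00238 to 0.162, and both ratios stayed below 0.

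**Figure D2:**
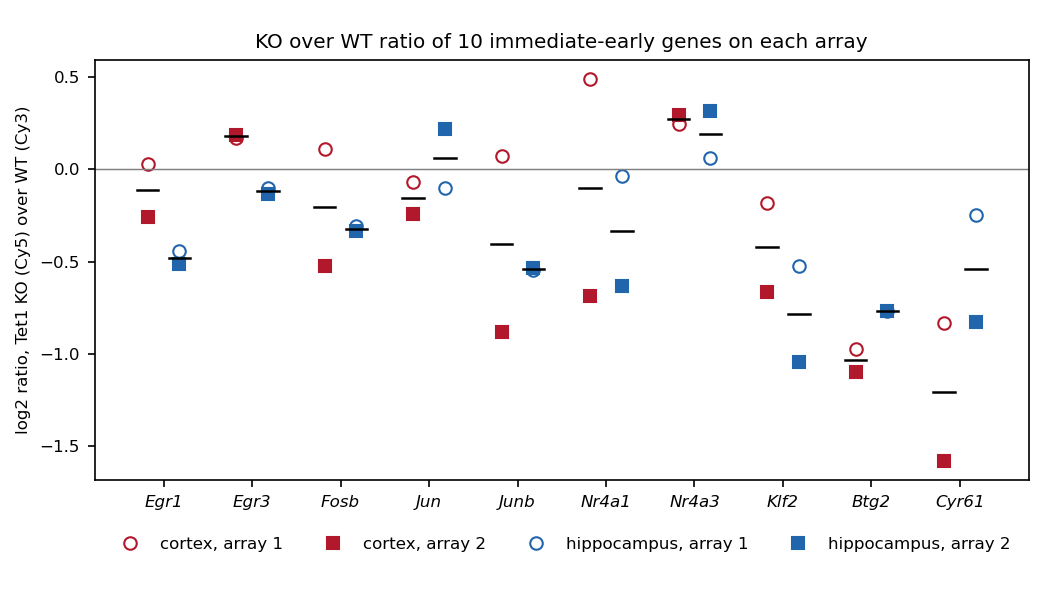
Log2 ratio of KO (Cy5) over WT (Cy3) for each gene on each of the 4 arrays, with a black line at the mean of the 2 arrays of a tissue. Btg2, Cyr61 and Klf2 are below 0 on all 4 arrays, and Nr4a1, Junb and Fosb are above 0 on cortex array 1 and below 0 on cortex array 2.

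Klf2, a zinc finger factor known from endothelial cells and lymphocytes, was lower in KO on 4 of 4 arrays without passing. Its probe lies at chr8:74845137-74845196 (mm9). The log2 signal was 10.87 and 11.43 in WT cortex against 10.68 and 10.76 in KO, and 10.82 and 11.35 in WT hippocampus against 10.29 and 10.31 in KO. No KO sample reached a WT sample of its tissue, and again the KO samples lay close together. The ratio was -0.42 ± 0.18 in cortex (adjusted p = 0.266), -0.79 ± 0.18 in hippocampus (adjusted p = 0.115) and -0.60 ± 0.12 over both (adjusted p = 0.0510). Klf2, Btg2 and Cyr61 are the 3 members below 0 on all 4 arrays, which held for 17.6% of all genes.

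Vessel and membrane markers were read in the same comparison. Of 14 endothelial markers, 11 were below 0 in cortex (median -0.07), beside 41.4% of all genes, and 12 in hippocampus (median -0.25), beside 45.4%. Over both tissues 1 was called lower, beside 3.78% of all genes, and 1 higher, beside 7.12%. These were Cldn5, a tight junction protein of brain endothelium (-0.59, adjusted p = 0.0279), and the monocarboxylate transporter Slc16a1 (0.55, adjusted p = 0.0353). The mean log2 signal of the 14 was 10.06 to 10.12 in WT cortex, 9.99 to 10.07 in KO cortex, 10.04 to 10.17 in WT hippocampus and 9.90 to 9.91 in KO hippocampus. In hippocampus 8 of 10 mural markers (median -0.45) and 10 of 10 leptomeningeal markers (median -1.03) were also below 0. In cortex the mural median was 0.04 and 10 of 10 leptomeningeal markers were above 0. In cortex 9 of 9 striatal markers (median -0.35) and 11 of 12 microglial markers (median -0.20) were below 0 too. Over both tissues 2 of 10 mural, 4 of 10 leptomeningeal, 3 of 12 microglial and 0 of 9 striatal markers were called lower. In these lists 0 were called higher. The part of these cells in the members' ratios was not tested, and in bulk tissue fewer cells of a type and less RNA per cell cannot be told apart.

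The EGR factors are zinc finger proteins that bind GC-rich sites, and Egr1 is the member most used to map active neurons. Its probe lies on chromosome 18 (mm9, 35024395 to 35024454). Egr1 had log2 signals of 14.40 and 14.74 in WT cortex and 14.43 and 14.49 in KO cortex. In hippocampus it had 13.55 and 13.88 in WT and 13.11 and 13.37 in KO. The cortex groups overlapped and the hippocampus groups did not. The ratio was -0.11 ± 0.09 in cortex (adjusted p = 0.515), -0.48 ± 0.09 in hippocampus (adjusted p = 0.100) and -0.30 ± 0.06 over both (adjusted p = 0.0572), and none passed. Egr3, whose product acts in muscle spindles and in synaptic plasticity, was not well above background in any WT sample, so no fold could be set for it. Its measured signals spanned 6.69 to 6.97 over the 8 samples, with cortex and hippocampus ratios of 0.18 ± 0.06 and -0.12 ± 0.06 (adjusted p = 0.211 and 0.322). The cortex ratio turned to -0.22 with the scanner's processed signals and to -1.16, relative to all genes, with arrays centred on their median in place of loess.

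Among the AP-1 subunits no ratio passed. Junb, a JUN protein that often restrains c-Jun, had log2 signals of 8.35 and 9.04 in WT cortex against 8.42 and 8.16 in KO, and 8.27 and 8.37 in WT hippocampus against 7.72 and 7.84 in KO. The cortex groups overlapped, and both KO hippocampus samples were below both WT ones. Its cortex and hippocampus ratios were -0.40 ± 0.23 and -0.54 ± 0.23 (adjusted p = 0.375 and 0.244). Fosb, whose splice form deltaFosB builds up with repeated stimulation, had 10.095 and 10.67 in WT cortex against 10.21 and 10.14 in KO, and 9.30 and 9.67 in WT hippocampus against 8.99 and 9.33 in KO. Its groups overlapped in both tissues, with ratios of -0.20 ± 0.16 and -0.32 ± 0.16 (adjusted p = 0.499 and 0.297). Jun, the partner of FOS proteins in AP-1, had ratios of -0.15 ± 0.10 in cortex and 0.06 ± 0.10 in hippocampus, the only member with 1 hippocampus array below 0 (-0.10) and the other above (0.22). The 95% confidence interval of its mean ratio over both tissues ran from -0.24 to 0.15.

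The NR4A receptors act without a known hormone and bind DNA as monomers or dimers. Nr4a1 had log2 signals of 14.79 and 15.9993 in WT cortex and 15.27 and 15.31 in KO cortex. In hippocampus it had 14.46 and 15.18 in WT and 14.42 and 14.55 in KO. Both KO cortex samples thus lay between the WT samples, and the hippocampus groups overlapped too. The ratio was 0.49 on cortex array 1 and -0.69 on cortex array 2, with a mean of -0.10 ± 0.31 (adjusted p = 0.881, 95% confidence interval -0.92 to 0.73). Hippocampus gave -0.33 ± 0.31 (adjusted p = 0.552). Nr4a3 was not well above background in any WT sample or in KO cortex, and no fold could be set for it. Its probe maps across an intron, from 48080690 to 48083876 on chromosome 4 (mm9), was spotted 10 times and gave ratios of 0.25 and 0.30 in cortex and 0.06 and 0.32 in hippocampus. It is the only member above 0 on all 4 arrays, as were 28.1% of all genes, and its mean ratio of 0.23 ± 0.06 did not pass (adjusted p = 0.0769) and turned to -1.05 relative to all genes under median centring.

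The effect of genotype was not shown to differ between the tissues for any member. The difference of the ratios, cortex minus hippocampus, had an adjusted p of 0.9999 for all 10, and 0 of 16773 genes (0%) passed in limma (749 with an unadjusted p under 0.05). Without the adjustment, 3 members had p under 0.05, beside 4.47% of all genes: Egr1 (0.36 ± 0.13), Egr3 (0.30 ± 0.09) and Btg2 (-0.27 ± 0.10). Of these, Egr3 was not well above background in any WT sample and passed the filter on dim probes only through KO samples.

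The members' ratios followed the array. Their median was 0.05 on cortex array 1 with 4 of 10 below 0, -0.59 on cortex array 2 with 8 of 10 below 0, -0.28 on hippocampus array 1 with 9 of 10 below 0 and -0.52 on hippocampus array 2 with 8 of 10 below 0. The median of all genes was 0.03 on all 4 arrays. In cortex 8 of 10 members had the lower ratio on array 2, beside 49.4% of all genes, and in hippocampus 7 of 10 did, as did 8384 of the 16773 genes. Markers of other cells also differed between arrays. The choroid plexus markers had median ratios of 0.51 and 2.15 on cortex arrays 1 and 2 and of 0.04 and -2.83 on hippocampus arrays 1 and 2. On the hippocampus arrays the leptomeningeal medians were -0.65 and -1.52 and the mural medians -0.39 and -0.55. Their part in the members' ratios was not tested.

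The members' spread between the 2 samples of a group was wider in WT (Cy3) than in KO (Cy5). In WT cortex the members differed between samples by a median of 0.51, where the median gene differed by 0.10, and in WT hippocampus by 0.33 against 0.12. In KO cortex the members differed by 0.08, as the median gene did (0.08), and in KO hippocampus by 0.12 against 0.10. In WT cortex 6 of 10 members differed by more than the 95th percentile of all genes, in WT hippocampus 3 of 10 and in either KO group 0 of 10. In every group most members were higher in sample 2 than in sample 1: 9 of 10 in WT cortex, beside 50.4% of all genes, 7 of 10 in WT hippocampus, beside 50.3%, 7 of 10 in KO cortex, beside 52.2%, and 9 of 10 in KO hippocampus, beside 49.5%.

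Nr4a1 showed the widest gap. Its scanner signal in Cy3 was 19182 in WT cortex 1 and 40167 in WT cortex 2, while in Cy5 it was 68504 and 67554 in the KO samples on the same arrays. After normalisation the WT samples differed by 1.21, at the 99.6th percentile of all genes in that group, and the KO samples by 0.04. Cyr61 followed in WT cortex with 0.90, Junb with 0.69, Fosb with 0.57, Klf2 with 0.56 and Jun with 0.47. In WT hippocampus the gap was 0.73 for Nr4a1, 0.65 for Cyr61 and 0.54 for Klf2. Btg2 differed from this pattern, with gaps of 0.37 in WT cortex and 0.33 in WT hippocampus beside 0.24 and 0.33 in the KO groups. The cell type markers also differed between WT cortex 1 and WT cortex 2. The mean signal of the choroid plexus markers was 11.22 and 8.80, of 9 striatal markers 13.31 and 13.05, of 12 microglial markers 12.80 and 12.65, of 8 excitatory neuron markers 13.59 and 13.53 and of 14 endothelial markers 10.12 and 10.06. Those of 8 astrocyte markers were 13.48 and 13.56 and of 10 mural markers 9.93 and 9.97. The part of these cells in the members' gap was not tested.

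**Figure D3:**
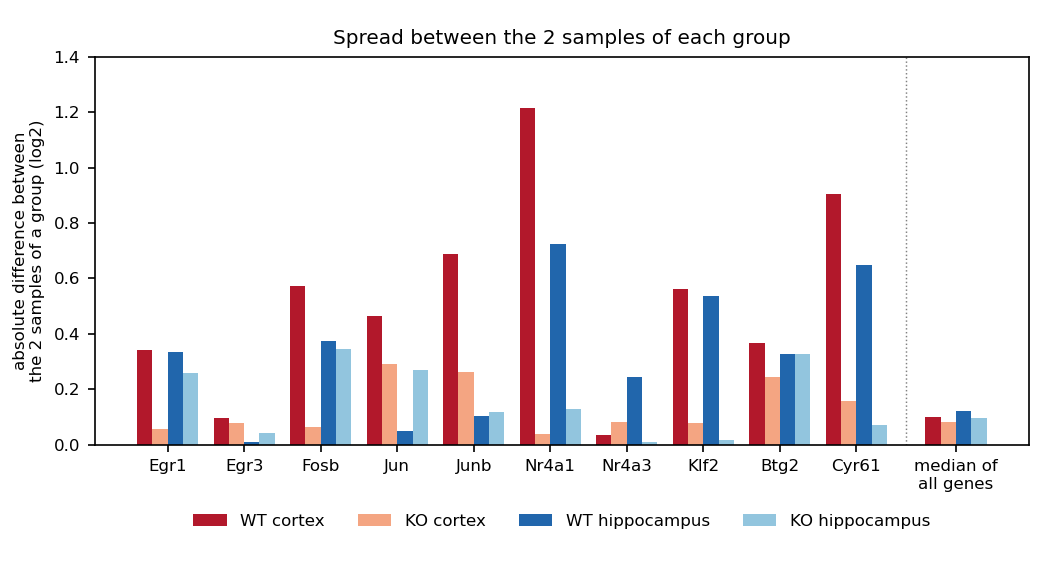
Absolute log2 difference between the 2 samples of each group for the 10 genes, with the median of all 16773 genes at the right. The WT bars exceed the KO bars of the same tissue for 9 genes in cortex and 7 in hippocampus, most for Nr4a1 (1.21 in WT cortex).

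Cortex and hippocampus were compared within 1 dye, where a probe's dye bias cancels. In WT 4 of 10 members were called higher in cortex, beside 7.20% of all genes, and 2 lower, beside 7.77%, which is 6 of 10 in either direction beside 15.0%. The lower calls include Nr4a3, which was not well above background in any WT sample, and without it the count is 5. In KO 2 were higher (7.54% of all genes) and 1 lower (7.29%), 3 of 10 beside 14.8%. Egr1, Fosb and Jun passed in both genotypes, with Egr1 and Fosb higher in cortex and Jun higher in hippocampus. Egr1 was higher in cortex by 0.86 ± 0.15 in WT (adjusted p = 0.0113) and by 1.22 ± 0.15 in KO (adjusted p = 0.00267), in limma's single-channel fit with n = 2 samples per group. Fosb was higher by 0.90 ± 0.21 in WT and 1.01 ± 0.21 in KO (adjusted p = 0.0334 and 0.0214). For both genes the samples given above do not overlap between the tissues in either genotype.

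Jun was lower in cortex. Its log2 signal was 12.12 and 12.58 in WT cortex against 13.22 and 13.17 in WT hippocampus, and 12.05 and 12.34 in KO cortex against 13.12 and 13.39 in KO hippocampus. All 4 cortex samples were below all 4 hippocampus samples. The ratio of cortex over hippocampus was -0.84 ± 0.17 in WT (adjusted p = 0.0180) and -1.06 ± 0.17 in KO (adjusted p = 0.00728), a 1.80-fold and a 2.08-fold difference.

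Btg2 and Cyr61 passed in WT only, at 0.75 ± 0.17 and 1.32 ± 0.31 (adjusted p = 0.0278 and 0.0312), and had 0.49 ± 0.17 and 0.65 ± 0.31 in KO (adjusted p = 0.109 and 0.225). The difference between genotypes is the one tested above and did not pass. Nr4a3 was also called lower in WT cortex (-0.38 ± 0.09, adjusted p = 0.0378) between signals that were not well above background in either tissue. That call was lost with outlying backgrounds kept, with processed signals, with the replicate block and under 7 other alternatives, with adjusted p up to 0.433. Junb, Klf2 and Nr4a1 had higher mean signals in cortex in both genotypes without passing, with Nr4a1 at 0.57 ± 0.39 in WT and 0.81 ± 0.39 in KO (adjusted p = 0.389 and 0.235). In KO 8 of 10 members had both cortex samples above both hippocampus samples, beside 28.5% of all genes, and in WT 4 of 10, beside 24.6%. The 8 include Egr3, which passed the filter on dim probes only through KO samples. Its log2 signals were 6.96 and 6.88 in KO cortex against 6.87 and 6.83 in KO hippocampus.

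The count in each genotype rested on the samples and on which of them shared a spread estimate. Fitted without the other dye, the 4 KO samples called 8 members (15.8% of all genes) and the 4 WT samples called Egr1 and Jun alone (9.01%). The 8 include Nr4a3, which passed the filter on dim probes only through KO hippocampus and was not well above background in KO cortex. With 1 array left out, the members that passed changed with the array in both genotypes, and the fit then had 1 sample for a group. In WT the ratio of cortex over hippocampus then ranged from 0.68 to 1.03 for Egr1, 0.61 to 1.18 for Fosb and -1.08 to -0.61 for Jun. In KO it ranged from 1.09 to 1.35 for Egr1, 0.84 to 1.19 for Fosb and -1.20 to -0.91 for Jun. Striatal markers were higher in cortex by a median of 2.61 in WT and 2.33 in KO, and their part in the members' tissue ratios was not tested.

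**Figure D4:**
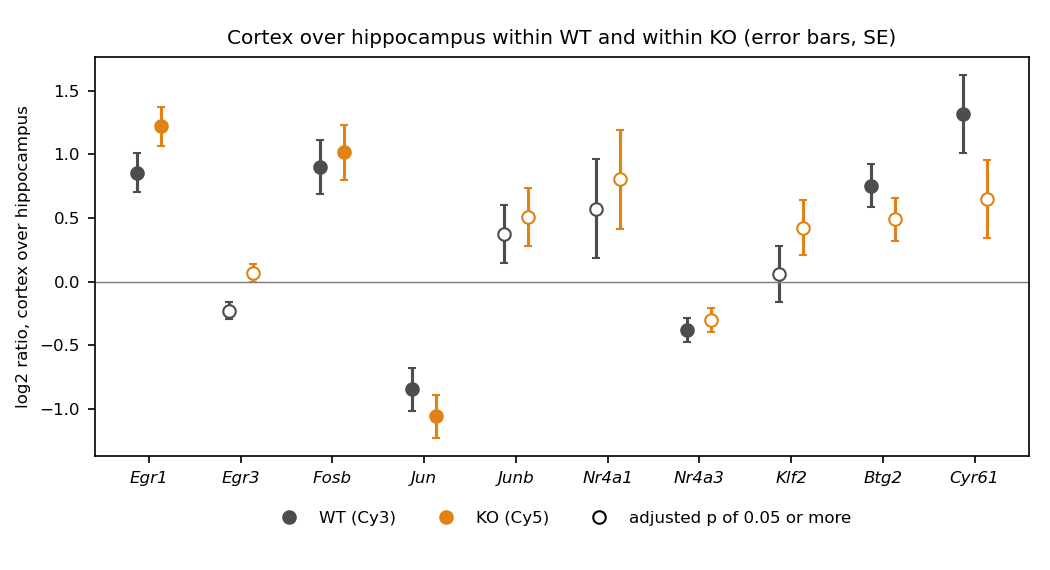
Log2 ratio of cortex over hippocampus for the 10 genes within WT (Cy3) and within KO (Cy5), with the SE of the fit, filled where the adjusted p is under 0.05. Egr1 and Fosb lie above 0 and Jun below 0 in both genotypes, and Klf2 is at 0.06 in WT and 0.42 in KO.

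Other immediate-early regulators were taken from a list of 42 genes, of which 40 were tested. Over both tissues 5 of 40 fell in KO, beside 3.78% of all genes, and 0 rose, beside 7.12%. They were the activity-dependent factor Npas4 (-1.81 ± 0.11, adjusted p = 0.0143), the AP-1 subunit Fos (-0.99 ± 0.16, adjusted p = 0.0387), the growth arrest gene Gadd45g (-0.60 ± 0.05, adjusted p = 0.0221), Ier2 (-0.57 ± 0.09, adjusted p = 0.0392) and Klf9 (-0.38 ± 0.06, adjusted p = 0.0339). All 5 calls were lost when any 1 array was left out (lowest adjusted p 0.0718 to 0.0852 among the 5 genes), and with outlying backgrounds kept only Npas4 passed. The list's median ratio was -0.01 in cortex with 20 of 40 below 0, and -0.09 in hippocampus with 27 of 40 below 0, and none passed in either tissue alone. In WT cortex its mean signal was 11.23 in sample 1 and 11.47 in sample 2, and in KO cortex 11.25 and 11.22. Between tissues 11 were higher and 3 lower in WT cortex, beside 7.20% and 7.77% of all genes, and 12 were higher and 4 lower in KO cortex, beside 7.54% and 7.29%. Those with the widest differences were Egr2 (1.46 in WT and 1.96 in KO), the CCN gene Ctgf (1.39 and 1.82), Npas4 (1.36 and 1.90) and Fos (1.097 and 1.57) on the higher side. On the lower side were Fosl2 (-0.69 and -0.78) and Btg1 (-0.40 and -0.55) in both genotypes, Dusp5 in WT (-0.43), and Btg3 (-0.46) and Myc (-0.43) in KO.

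The factors and kinases that act on immediate-early promoters were taken from a list of 37 genes, all tested. Over both tissues 1 rose in KO, beside 7.12% of all genes, and 0 fell, beside 3.78%. The gene that rose was the transcription factor Mef2a (0.26 ± 0.05, adjusted p = 0.0489). The list's medians were 0.03 in cortex and 0.04 in hippocampus. Without the adjustment 12 of the 37 had p under 0.05, 8 higher and 4 lower, beside 33.8% of all genes. With each array centred on its median in place of loess, Mef2a lay at -0.00072 relative to all genes, and its call was lost when any 1 array was left out (adjusted p = 0.0932 to 0.227). Between tissues 8 were higher and 1 lower in WT cortex, beside 7.20% and 7.77% of all genes. In KO cortex 6 were higher and 0 lower, beside 7.54% and 7.29%. Those called higher in both genotypes included Mef2c (1.91 in WT and 1.81 in KO) and the calcium kinases Camk4 (0.98 and 0.99) and Camkk2 (0.86 and 0.89). The kinase Rps6ka3 (0.67 and 0.54) and the PKA subunit Prkacb (0.56 and 0.63) were also among them. The calcineurin subunit Ppp3r1 was lower in WT (-0.42).

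The 8 members well above background in all 8 samples were joined in a mean standardised profile. The profile, centred within each dye, was highest in WT cortex 2 (1.23) and lowest in WT hippocampus 1 (-0.93). Pearson's r of each member with this profile, which contains it, was 0.98 for Nr4a1, 0.95 for Fosb, 0.93 for Junb, 0.93 for Cyr61, 0.92 for Btg2, 0.90 for Egr1 and 0.87 for Klf2, while Jun had -0.60. The 3 genes most like the profile among 12750 others were Uchl5 (0.988), Sntg1 (0.985) and A830052D11Rik (0.984), and 157 genes had r over 0.9. These values describe 8 points that share arrays in pairs and fall into 2 tissues.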

How the data were processed

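Total RNA was amplified, labelled and hybridised to two-colour Agilent arrays, per the labels. The files of the WT and KO sample of one tissue and number were identical, so the 8 samples are 4 arrays, on 1 slide. Per the file headers, Feature Extraction 10.1.1.1 gave the deposited intensities, and probe positions are those of mm9. The authors' deposited value table holds log2 values per channel, with column medians of 8.21 to 8.25. The sources used here do not give its background correction or centring, and its KO over WT ratios had r = 0.938 to 0.967 across spots with those used here.

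The members, lists and settings were chosen with earlier results of these data known, including the replacement of outlying local backgrounds by the array median. Background was corrected with normexp (offset 50), and arrays were normalised with loess (span 0.3, 1377 control spots at weight 0) in limma 3.58.1 and R 4.3.3, with Aquantile for single channels. A gene was its brightest probe, kept where at least 1 group had it well above background in both samples. Genotypes were compared with lmFit and eBayes, fitted to 4 log ratios with 1 mean per tissue (2 residual and 2.62 prior degrees of freedom). Tissues were compared within a dye by lmscFit (intraspot correlation 0.191). A call is a Benjamini-Hochberg adjusted p under 0.05 over 16773 genes, and fits were tested on simulated data. Number of arrays limits the precision. The text names all members, the called genes of 2 pathway lists (up to 4 per direction with the widest change, with Klf9, Cldn5 and Slc16a1 added after their values were seen) and the 3 genes most like the members' profile. WT and KO of one number shared an array, which the ratio uses as the pair. The deviations of replicate 1 had r = 0.33 between WT and KO in cortex and 0.20 in hippocampus. Alternatives changed the background, signals, scaling, filter, probe rule, variance model, pairing and samples.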

Additional observations from a re-analysis of the deposited data

Results flagged for a closer look

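Egr3 was picked out because its KO over WT ratio ran in opposite directions in the 2 tissues: it was 0.17 and 0.19 in cortex, array by array, and -0.10 and -0.13 in hippocampus. Their difference, cortex minus hippocampus, was 0.30 ± 0.09 and was tested in limma (unadjusted p = 0.0218, adjusted p = 0.9999), so it is not shown. Egr3 was not well above background in any WT sample, with Cy3 signals of 264 to 291 where negative control spots had medians of 247 to 263.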

How the results depend on the processing

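The counts of members called moved most. In cortex the count of 0 became 1 (Btg2) with processed signals, deposited values, a strict filter or no filter on dim probes, the mean of probes, a variance trend, or no replicate block. Of the genes tested, 0.118% (no filter) to 1.76% (no replicate block) were then called. In hippocampus the count of 0 became 2 with processed signals (2.22% of all genes) and 1 with the variance trend (0.358%). The 2 were Btg2 and Nr4a3, of which Nr4a3 was higher in KO and not well above background in any WT sample. Over both tissues the count of 2 became 0 with outlying backgrounds kept (3 of all genes), 1 with processed signals, and 4 with deposited values, no filter (3365 of all genes, against 1829) or the variance trend, and was 0 without any 1 array (0 to 1 of all genes). The share of all genes called over both tissues was 7.18% with processed signals, 14.1% with deposited values and 13.5% with the variance trend. Median centring in place of loess moved the median of the genes tested by 0.54 in cortex and 0.53 in hippocampus. Relative to it, 5 of 10 members were called in cortex, beside 43.9% of all genes, 6 in hippocampus, beside 49.9%, and 7 over both tissues, beside 62.7%. These counts are near the shares of all genes, and Egr3 and Nr4a3 were among the members called each time. The members' medians were -0.73 in hippocampus and -0.69 over both. Cortex over hippocampus in WT called 3 members with processed signals (14.6% of all genes), 2 in the fit of the WT samples alone (9.01%) and 5 with the replicate block (9.53%). The count also fell with 1 array left out, where a group had 1 sample. Cortex over hippocampus in KO called 8 with the KO samples alone (15.8% of all genes) or with the replicate block (19.0%). Its median became 0.61 with processed signals. The numbers 1 and 2 are not stated to pair cortex with hippocampus, and the deviations of replicate 1 had r = -0.08 in WT and 0.24 in KO.

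With 1 array left out, the members' median ranged from -0.25 to 0.36 for the difference between tissues in KO over WT, from -0.0042 to 0.83 for cortex over hippocampus in WT and from 0.43 to 0.61 for that in KO. These members changed sign among the same fits. In cortex, KO over WT ranged from -0.88 to 0.071 for Junb, -0.26 to 0.029 for Egr1, -0.52 to 0.11 for Fosb and -0.69 to 0.49 for Nr4a1. In hippocampus it ranged from -0.10 to 0.22 for Jun, and over both tissues from -0.51 to 0.079 for Nr4a1 and -0.13 to 0.033 for Jun. The difference of these ratios between tissues ranged from -0.34 to 0.61 for Junb, -0.20 to 0.43 for Fosb, -0.35 to 0.82 for Nr4a1 and -0.045 to 0.21 for Nr4a3. Cortex over hippocampus in WT ranged from -0.22 to 0.34 for Klf2 and -0.036 to 1.18 for Nr4a1.

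Other settings turned the sign of ratios that had not passed, and the cause was not tested. With outlying backgrounds kept, Egr3 had -0.028 over both tissues and -0.055 for KO cortex over hippocampus, and Nr4a3 had -0.17 for the difference between tissues. With processed signals, KO over WT in cortex was -0.696 for Nr4a3 and -0.22 for Egr3, Jun in hippocampus was -0.0024, Egr3 over both tissues was -0.45, and the difference for Nr4a3 was -1.41. Relative to all genes under median centring, KO over WT in cortex was -1.16 for Nr4a3, -1.16 for Egr3, 0.20 for Egr1, 0.29 for Nr4a1 and 0.0043 for Jun. In hippocampus it was -0.93 for Nr4a3 and 0.048 for Nr4a1. Over both tissues it was -1.05 for Nr4a3, -1.22 for Egr3, 0.17 for Nr4a1, 0.16 for Jun and -0.00072 for Mef2a, the last called higher under loess. The difference for Nr4a3 was -0.23, and KO cortex over hippocampus was -0.013 for Egr3. Of the other gene values outside the fits that left out an array, 757 kept their sign and side of the threshold, 60 lost and 42 gained a call. The nearness of Cy3 signals to the negative controls (1.35 to 1.43 times, against 3.24 to 3.66 in Cy5) limits what can be measured of Egr3 and Nr4a3 in WT.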
